A study of Mus musculus with 3 samples.

Results

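Aminoacyl-tRNA synthetases are the enzymes that load each transfer RNA with its amino acid, and this account follows their transcripts through a lipid load of cultured mouse macrophages. Members were the genes whose symbol in the platform annotation was a single-letter amino acid code followed by "ars", with or without a 1, 2 or 3, together with Eprs, Farsa and Farsb. The rule used no measured value and found 34 of the 19938 genes measured, 18 of them cytosolic and 16 mitochondrial enzymes. Synthetase genes outside these 34 are not analysed here as members.

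The cells were thioglycollate-elicited peritoneal macrophages of male Angptl4-/- mice on a C57Bl/6 background, pooled over 3 samples before hybridisation to 1 Affymetrix array per group. The cells of every group, the control included, carried the Angptl4 deletion and had been drawn into the peritoneal cavity with 4% thioglycollate. Adherent cells were exposed for 6 h to phosphate-buffered saline (PBS), to intralipid at 0.5 mM triglyceride, or to intralipid at 0.5 mM with 2.5 µg/mL recombinant mouse ANGPTL4, which had been added 1.5 h earlier. The array of this last group is called the ANGPTL4 array below. Intralipid is a triglyceride emulsion and ANGPTL4 an inhibitor of lipoprotein lipase, and the labels name neither a mock pre-incubation of the remaining cultures nor the age of the mice.

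A cell needs a synthetase for each amino acid in the cytosol and a second set in the mitochondrion, where a small group of proteins of the respiratory chain is made. Nearly all mitochondrial enzymes are products of separate nuclear genes, recognised by the suffix 2. Gars and Kars serve both compartments from a single gene and were counted with the cytosolic enzymes. Several cytosolic synthetases sit in a multi-synthetase complex held together by the scaffold proteins AIMP1, AIMP2 and AIMP3 (gene Eef1e1). Many cytosolic synthetase genes are known targets of ATF4, the transcription factor of the integrated stress response, which is translated when uncharged tRNA or other stress leads to phosphorylation of the initiation factor eIF2. The arrays address whether this set of genes differed with the lipid load and with added ANGPTL4.

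Values are the authors' log2 expression values, so a difference of 1 is 2-fold, and a gene was taken as expressed from the median of all named probe sets on an array upward, a floor between 4.97 and 4.98. With 1 array per group there is no spread between replicates, no test was run, and words such as higher or lower compare 3 single arrays. As a yardstick across genes, the robust SD of the log2 differences (from the central 68% of genes past the floor) was 0.20 between intralipid and PBS, 0.23 between intralipid plus ANGPTL4 and intralipid alone, and 0.10 between intralipid plus ANGPTL4 and PBS. It measures how widely genes differ, not the error of 1 gene. The deleted gene Angptl4 was listed at 4.92 on each array, below the floor, and the position of its probes relative to the deletion is not given. All 9 macrophage markers passed the floor, at a median log2 value of 10.70 with PBS and 10.72 on both intralipid arrays, but single ones differed both ways. Between intralipid and PBS they ran from -0.48 (the Fc receptor gene Fcgr1) to 2.10 (Cd14, the endotoxin co-receptor), and Csf1r was 0.79 higher with ANGPTL4 than with intralipid alone. Of 3 B cell, 5 T and NK cell, 5 mast cell and 1 erythroid markers, 0 passed the floor. Of 6 neutrophil markers 2 passed (S100a8, and Csf3r at 8.11 in PBS and 7.91 on both lipid arrays), and of 4 eosinophil markers 1 did (Siglecf, between 7.30 and 7.51). Of 5 mesothelial markers 1 passed (Wt1, between 5.28 and 5.40). Of 5 dendritic cell markers 1 passed, Clec9a, which reached 5.00 with intralipid against 3.44 in PBS and 3.32 on the ANGPTL4 array, while the other 4 held 1 value on all 3 arrays. Of 6 fibroblast markers 5 passed, with a median over all 6 of 8.09 for PBS and 8.08 for each lipid array. The part of these cell types in the results was not tested. In such pooled RNA, fewer cells of a type and less RNA per cell cannot be told apart.

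Of the 34 synthetases, 33 passed the floor on at least 1 array and 32 on all 3. Ears2, the mitochondrial glutamyl enzyme, was listed at 4.04 on every array and lay below it. A total of 11 members held 1 identical value on all 3 arrays, 4 of them cytosolic and 7 mitochondrial (Ears2 included), as did 25.1% of all genes past the floor. Such ties say that the deposited summary did not separate the arrays, not that the transcript level was the same.

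**Figure D1:**
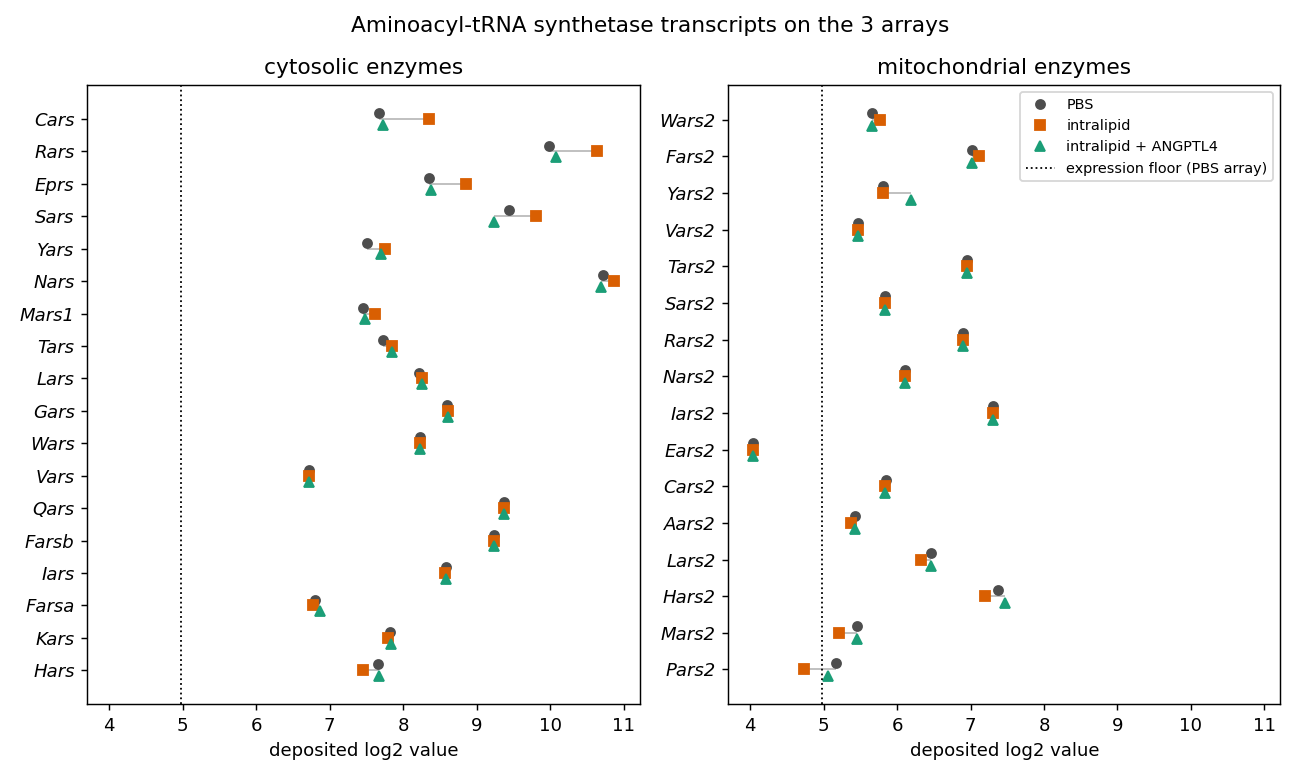
Deposited log2 values (horizontal axis) of the 18 cytosolic (left) and 16 mitochondrial (right) synthetases, with a circle for PBS, a square for intralipid and a triangle for intralipid plus ANGPTL4, 1 array each, and a dotted line at the floor of the PBS array. Genes are ordered by intralipid minus PBS. The squares of Cars, Rars, Eprs and Sars stand to the right of both other symbols, and most mitochondrial symbols coincide. Positions of different genes are not comparable, since each has its own probes.

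The first comparison asks how the synthetases differed after the lipid load. A handful of cytosolic enzymes was higher with intralipid than with PBS, led by Cars, Rars, Eprs, Sars and Yars. The mitochondrial enzymes were lower or identical with few exceptions. Most genes were so too, with 44.4% of all genes lower, 32.1% identical and 23.5% higher. The 2 sets of synthetases were also listed at unlike levels, in PBS from 6.72 to 10.72 for cytosolic and from 4.04 to 7.38 for mitochondrial genes. At a floor of the 75th percentile, 16 cytosolic and 2 mitochondrial genes remained. The part of signal level in the contrast was not tested. None of the differences was large. At the 2-fold mark, 0 of 33 members were called, where 2.51% of all 10049 genes lay that far above PBS and 1.32% that far below. At 1.5-fold, 2 of 33 members (Cars and Rars) were higher and 0 lower, against 5.07% and 5.57% of all genes, a share near the background.

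Cars, which charges cysteine tRNA, had a log2 value of 7.67 in PBS, 8.35 in intralipid and 7.72 on the ANGPTL4 array. The intralipid array stood alone, 1.61-fold above PBS (a log2 difference of 0.69). Rars, the arginyl enzyme and a member of the multi-synthetase complex, was at 9.99, 10.64 and 10.08 in the same order. Its intralipid value was 1.57-fold above PBS (0.65). Eprs joins glutamyl and prolyl synthetases in 1 protein of the same complex and was at 8.35, 8.85 and 8.38. That is a difference of 0.50, or 1.41-fold, between intralipid and PBS.

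Sars, the seryl enzyme, was at 9.44 in PBS, 9.81 in intralipid and 9.24 on the ANGPTL4 array. It was 1.29-fold higher with intralipid than with PBS (0.37), and of these 5 it was the only gene whose ANGPTL4 value lay below PBS. Yars, the tyrosyl enzyme, was at 7.50, 7.76 and 7.70, and both lipid arrays stood above PBS. Its intralipid difference was 0.26, or 1.19-fold. These 5 of the 18 cytosolic genes were higher by more than the robust SD and 0 were lower by more than it, against 12% and 22.7% of all genes. Hars fell just short of the lower count, at -0.198 against a robust SD of 0.199.

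Smaller cytosolic differences were 0.16 for Nars (asparagine), 0.15 for Mars1 (methionine), 0.12 for Tars (threonine), 0.04 for Lars (leucine) and 0.01 for Gars (glycine). Farsb, which with Farsa forms the phenylalanyl enzyme, Qars (glutamine), Vars (valine) and Wars (tryptophan, also known as an interferon-inducible gene) held the same value on all 3 arrays. Lower with intralipid were Hars (histidine) by -0.20, Kars (lysine) by -0.04, Farsa by -0.03 and Iars (isoleucine) by -0.01. In all, 10 of 18 cytosolic genes were higher by any amount (55.6%), 4 lower and 4 identical, where 23.5% of all genes were higher, 44.4% lower and 32.1% identical. The count of 10 was 9 after centring the arrays on their medians, 15 after cyclic loess and 10 after quantile normalization, and the share of all genes was then 20.6%, 56.5% and 44.4%. Of the 5 genes gained with cyclic loess, 4 (Farsb, Qars, Vars and Wars) were identical in the deposited values and Iars was at -0.01. The cytosolic median difference was 0.02, beside 0.00 for all genes. Centring, which moves every gene alike, put the 2 medians at -0.01 and -0.04. The mean was 0.15, since a few genes carry the difference.

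Among the mitochondrial enzymes, Pars2 (proline) had a log2 value of 5.17 in PBS, 4.74 in intralipid and 5.05 on the ANGPTL4 array. Its intralipid value, below the floor, was 1.35-fold below PBS (-0.43). Measured against the floor itself, the PBS value was only 1.15-fold higher (0.20). Mars2 (methionine) was at 5.46 in PBS, 5.21 in intralipid and 5.46 on the ANGPTL4 array, a difference of -0.25. Hars2 (histidine) differed by -0.18, Lars2 (leucine) by -0.13, Aars2 (alanine) by -0.05 and Cars2 (cysteine) by -0.02. Fars2 (phenylalanine) and Wars2 (tryptophan) were the 2 higher ones, by 0.10 each. Iars2, Nars2, Rars2, Sars2, Tars2, Vars2 and Yars2 were identical on the PBS and intralipid arrays.

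Of the 15 mitochondrial members past the floor, 2 were thus higher (13.3%), 6 lower (40%) and 7 identical, with a median of 0.00 and a mean of -0.06. By more than the robust SD, 0 were higher and 2 (Pars2 and Mars2) lower, against 12% and 22.7% of all genes. The shares by any amount lie on the side of all genes, of which 23.5% were higher and 44.4% lower. After cyclic loess, which breaks the ties, 9 of the 15 were higher and 6 lower, beside 56.5% and 43.5% of all genes. With centred arrays the 7 ties became -0.04, as for every tied gene, and 2 of the 15 were higher and 13 lower, beside 20.6% and 79.4% of all genes.

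**Figure D2:**
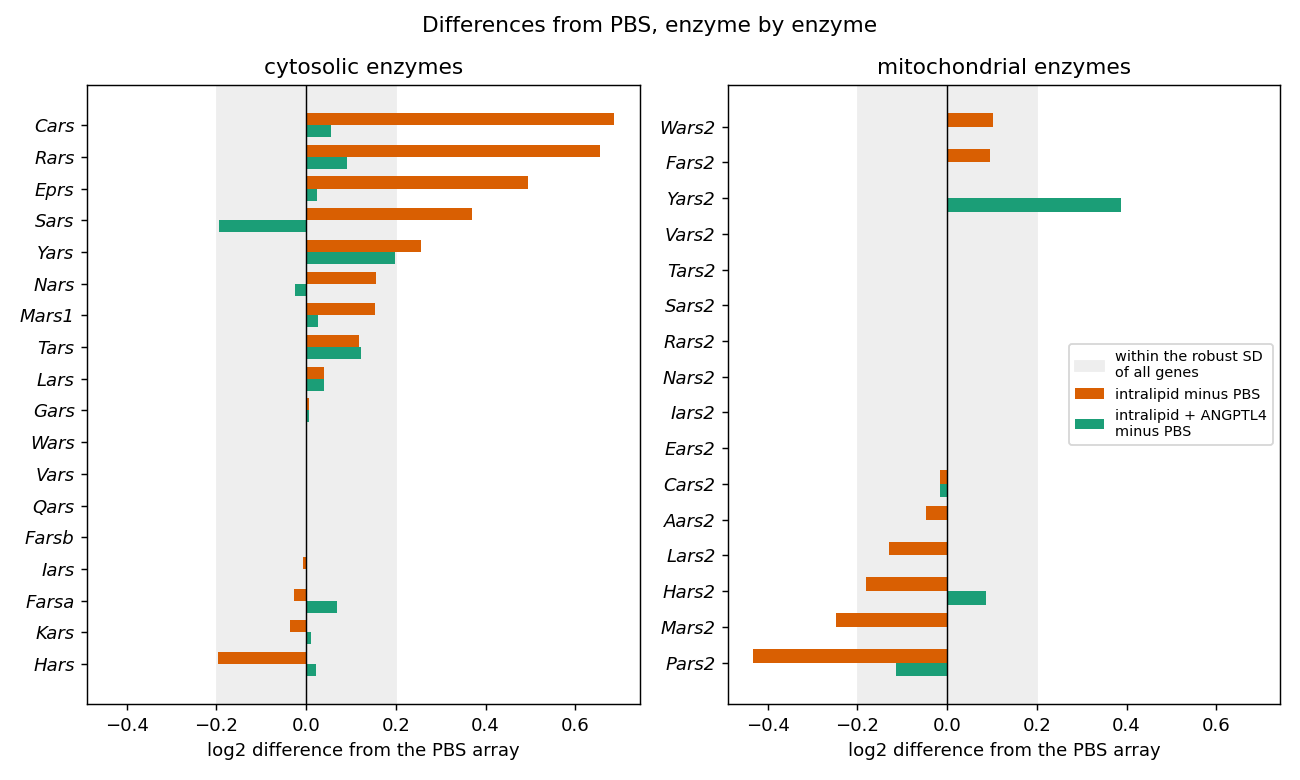
Log2 difference from the PBS array (horizontal axis) of each cytosolic (left) and mitochondrial (right) synthetase, with the upper bar for intralipid and the lower bar for intralipid plus ANGPTL4. The grey band spans the robust SD over all genes of intralipid minus PBS (0.20 to either side). Cars, Rars, Eprs, Sars and Yars reach past the band to the right and Pars2 and Mars2 to the left with intralipid, and of the ANGPTL4 bars that of Yars2 leaves it.

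Both compartments can be set side by side for the 12 amino acids that have 1 measured cytosolic and 1 measured mitochondrial gene. The cytosolic difference between intralipid and PBS was above the mitochondrial one in 8 of the 12 pairs, below it in 3 and equal in 1, and the median gap was 0.16. In the pairs for asparagine, arginine, serine, threonine and tyrosine, all counted as above, the mitochondrial gene was tied at 0.00. Their sign is that of the cytosolic gene alone. For cysteine the pair was 0.69 for Cars and -0.02 for Cars2, the widest gap at 0.70. For arginine it was 0.65 for Rars and 0.00 for Rars2. The methionyl pair, Mars1 at 0.15 and Mars2 at -0.25, was 0.40 apart. The histidyl genes Hars and Hars2, which neighbour each other in the genome, differed by -0.20 and -0.18 and so lay close together. For tryptophan the mitochondrial Wars2 (0.10) was above Wars (0.00). All 12 pairs come from the same 2 arrays and are not replicates.

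Within the cytosolic set, enzymes were also split by features other than compartment. The 12 genes commonly listed as ATF4 targets (Cars, Eprs, Gars, Iars, Lars, Mars1, Nars, Sars, Tars, Vars, Wars and Yars) had a median difference between intralipid and PBS of 0.14, with 9 higher, 1 lower and 2 identical. The other 6 (Farsa, Farsb, Hars, Kars, Qars and Rars) had a median of -0.01, with 1 higher, 3 lower and 2 identical. By share, 75% of the 12 and 16.7% of the 6 were higher, beside 23.5% of all genes. Lower were 8.33% and 50%, beside 44.4%, so the 6 lay near all genes. Both medians were within the robust SD of 0.20. Rars, the higher one of these 6, was next to Cars in size, so the list did not divide the genes cleanly. The 7 measured enzymes of the multi-synthetase complex (Eprs, Iars, Kars, Lars, Mars1, Qars and Rars) had a median of 0.04 and the 11 cytosolic enzymes outside it one of 0.01. By catalytic fold, 17 class I genes past the floor had a median of 0.00 (mean 0.09), and 15 class II genes also had one of 0.00 (mean -0.01).

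Stretches of promoter show which synthetase genes with a promoter entry carry a composite element of the C/EBP and ATF families near their start. ATF4 is known to bind at sites of this type. The RefSeq promoter table (build GRCm38.p6, 250 bases before to 50 after each start) held 25 of the 34 members. It had no entry for Cars, Rars, Hars, Lars, Nars, Vars, Wars, Hars2 and Pars2, so these genes were not searched. The core letters TGATGNAA were searched on both strands. They occurred in 4 of these 25 genes, Gars, Iars, Tars and Yars, and in 3.97% of all 32851 promoters in the table. For each motif, members were counted by gene and the background by promoter entry, so the units differ. The stricter TGATGCAA, contained in that core, occurred in Iars, Tars and Yars and in 0.895% of all promoters. The cyclic AMP element TGACGTCA occurred in 0 of the 25 and in 1.79% of all, and the E-box CACGTG in 4 of the 25 (Ears2, Farsb, Iars and Tars) and in 7.15%. Capitals below mark the core element, on the opposite strand where it begins with TT. For Gars and Tars the 100 bases before the start are shown.
Gars, chr6:55037901-55038000, + strand: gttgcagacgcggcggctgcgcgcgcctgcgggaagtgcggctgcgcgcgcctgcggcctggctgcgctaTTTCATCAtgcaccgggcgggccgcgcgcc
Tars, chr15:11399659-11399758, - strand: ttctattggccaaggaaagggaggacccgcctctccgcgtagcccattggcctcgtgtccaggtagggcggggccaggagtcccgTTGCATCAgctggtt
In Yars and Iars the element begins 4 and 8 bases into the transcribed part, and 30 bases around it are given.
Yars, chr4:129189895-129189924, + strand: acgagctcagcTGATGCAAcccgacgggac
Iars, chr13:49682126-49682155, + strand: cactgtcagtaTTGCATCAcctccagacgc
Eprs and Sars had the largest intralipid differences among the members with a promoter in the table. Their 100 bases before the start, shown for comparison, held none of the core letters.
Eprs, chr1:185362944-185363043, + strand: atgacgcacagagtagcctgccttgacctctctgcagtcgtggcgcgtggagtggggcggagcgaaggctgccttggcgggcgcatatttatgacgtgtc
Sars, chr3:108445260-108445359, - strand: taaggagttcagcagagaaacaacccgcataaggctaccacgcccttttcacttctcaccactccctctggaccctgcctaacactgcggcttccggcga
The 4 genes with the element differed between intralipid and PBS by 0.26 (Yars), 0.12 (Tars), 0.01 (Gars) and -0.01 (Iars). A match is a match of letters only.

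The second comparison asks whether added ANGPTL4 changed the synthetases under the lipid load. With ANGPTL4 the cytosolic genes that had been highest with intralipid were lower than with intralipid alone. Of 15 mitochondrial genes past the floor, 6 were higher (40%), beside 46.3% of all genes. Both comparisons use the intralipid array, so opposite signs in them are not independent of each other. At 2-fold, 0 of 33 members were called, where 2.53% of all 10064 genes were higher and 2.3% lower. At 1.5-fold, 1 member was lower (Cars) and 0 were higher, against 4.95% and 8.26% of all genes, so this count too is no larger than the background.

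Cars on the ANGPTL4 array was 1.55-fold below intralipid alone (-0.63). Rars and Sars were each 1.48-fold lower (-0.56), and Eprs was 1.39-fold lower (-0.47). These 4 of 18 cytosolic genes were lower by more than the robust SD, where 11% of all genes were. Nars differed by -0.18, Mars1 by -0.13 and Yars by -0.06. Hars was higher by 0.22, Farsa by 0.09, Kars by 0.05 and Iars by 0.01. In sum 7 of the 18 were lower, 5 higher (Tars among them, by less than 0.01) and 6 identical, against 23% lower, 46.3% higher and 30.6% identical among all genes, with a cytosolic median of 0.00 and a mean of -0.12. Centred arrays gave 7 lower and 11 higher, while cyclic loess gave 15 lower and quantile normalization 16. The share of all genes that was lower under these settings was 23%, 52.7% and 57.8%. The 6 tied cytosolic genes count as higher with centring, each by only 0.0001, and as lower with the other 2 settings.

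On the mitochondrial side, Yars2 (tyrosine) was at 5.81 in PBS, 5.81 in intralipid and 6.19 on the ANGPTL4 array. The ANGPTL4 array alone stood apart, 1.31-fold above both others (0.39). Pars2 was higher with ANGPTL4 than with intralipid alone by 0.32, Hars2 by 0.27 and Mars2 by 0.25. These 4 of 15 mitochondrial genes were higher by more than the robust SD, a share close to the 23.8% of all genes. The intralipid value of Pars2 lay below the floor, and against the floor itself its ANGPTL4 value was only 0.09 higher, which leaves 3 of 15. Lars2 and Aars2 were higher by 0.13 and 0.05, Fars2 and Wars2 lower by -0.10 each, and 7 were identical. The median was 0.00 and the mean 0.08. Cyclic loess and quantile normalization each gave 6 of 15 higher and 9 lower, where 52.7% and 57.8% of all genes were lower. Centred arrays gave 13 higher and 2 lower, where 77% of all genes were higher. The 7 tied mitochondrial genes count as higher with centring, each by only 0.0001, and as lower with the other 2 settings. In 8 of the 12 pairs for the same amino acid the cytosolic difference was below the mitochondrial one, in 3 above and in 1 equal, with a median gap of -0.16. Among the pairs counted as below, the mitochondrial gene was tied for cysteine, asparagine, arginine and serine, and the cytosolic gene for leucine.

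The third comparison, intralipid plus ANGPTL4 with PBS, shows where the synthetases stood when both agents were present. Most lay close to their PBS value. Of 33 members, 0 reached 2-fold, where 0.85% of all 9995 genes were higher and 0.04% lower, and 0 reached 1.5-fold, where 2.37% were higher and 0.53% lower. Cars was 0.05, Rars 0.09 and Eprs 0.02 above PBS. The members farthest from PBS were Yars2 at 0.39, Yars at 0.20, Sars at -0.19, Tars at 0.12 and Pars2 at -0.11. These 5 exceeded the robust SD of this comparison, which 19.5% of all genes did upward and 12.3% downward. The 2 tyrosyl enzymes, cytosolic Yars and mitochondrial Yars2, were thus the 2 highest members.

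By sign, 11 of 18 cytosolic genes were above PBS, 2 below (Sars and Nars) and 5 identical, where 35.4% of all genes were above, 24.4% below and 40.2% identical. The median of the 18 was 0.02. Centred arrays gave 6 of 18 above PBS and quantile normalization 5, where 28.7% and 28% of all genes were above it. The cytosolic median was then -0.02 and -0.03, beside -0.04 for all genes under both settings. Of the 15 mitochondrial genes, 11 were identical on both arrays, 2 above (Yars2 and Hars2) and 2 below (Pars2 and Cars2), with a median of 0.00.

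**Figure D3:**
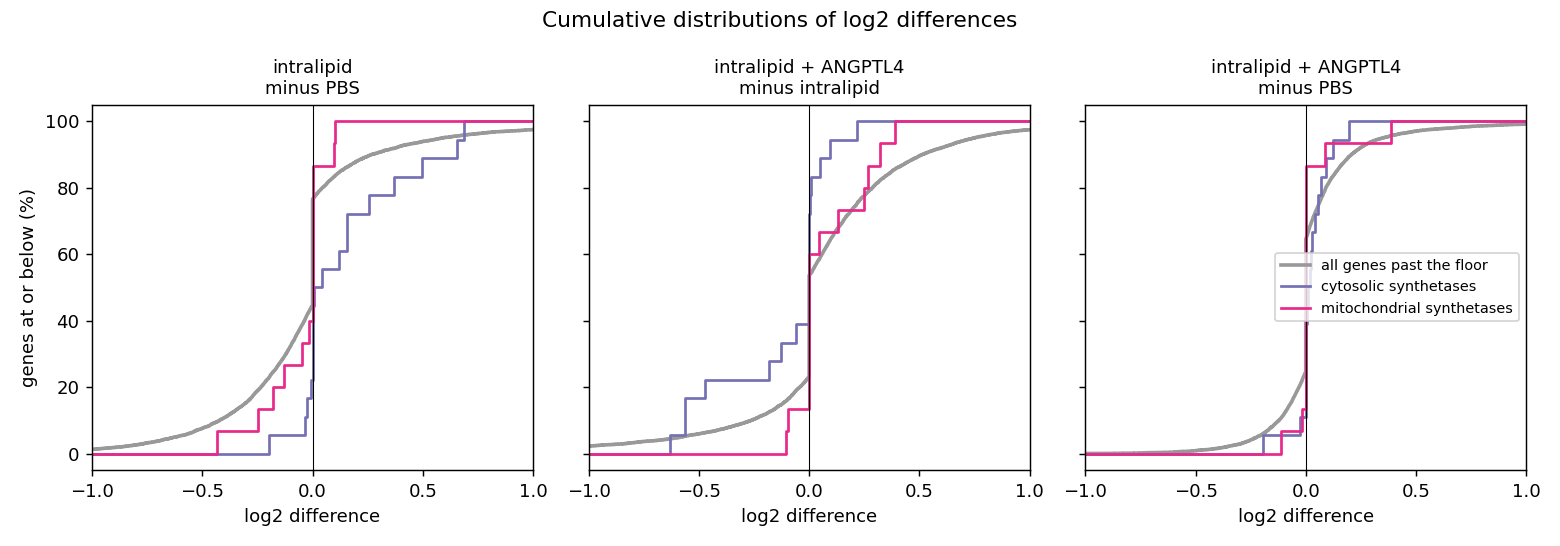
Share of genes (vertical axis, percent) with a log2 difference at or below the value on the horizontal axis, for all genes past the floor (grey), the 18 cytosolic (violet) and the 15 mitochondrial synthetases past the floor (pink), with 1 panel for each comparison. With intralipid against PBS, 55.6% of the violet line lies above 0 and 23.5% of the grey line, and no violet step lies beyond 0.69, while the grey line goes on past 1. With ANGPTL4 against intralipid alone, 38.9% of the violet line and 23% of the grey line lie below 0, and the violet line starts at -0.63. The steep step at 0 in each line is made of genes with identical values on the 2 arrays.

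Taking the 3 arrays together and leaving ties uncounted, 7 of the 18 cytosolic genes were higher on the intralipid array than on both others. A further 4 were lower there than on both others. Of the 16 mitochondrial genes (Ears2 included), 2 were above both others there and 5 below both. Among all genes past the floor the shares were 18.2% and 39.3%.

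Genes that work alongside the synthetases were taken from 6 lists. The ATF4 pathway itself was much farther from PBS than the synthetases were. Atf4 was at 8.87 in PBS, 9.94 in intralipid and 8.99 on the ANGPTL4 array, and was 2.11-fold higher with intralipid than with PBS. Of 18 ATF4 pathway regulators and stress outputs, 12 were higher and 4 lower with intralipid, 9 of them by 2-fold or more upward and 0 downward, and their median was 0.74. Among all genes 23.5% were higher and 2.51% at least 2-fold higher. Trib3, a pseudokinase induced by ATF4, differed by 2.66, Ddit3 (CHOP) by 2.43 and Sesn2, a leucine-sensing stress protein, by 2.23. The eIF2 kinase PERK (Eif2ak3) differed by -0.97, while GCN2 (Eif2ak4), which senses uncharged tRNA, was identical at 6.76 on both arrays.

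Of 10 amino acid synthesis and one-carbon genes past the floor, 8 were higher with intralipid than with PBS and 0 lower, with 3 at least 2-fold higher and a median of 0.33, beside the same 23.5% and 2.51% of all genes. Mthfd2, a mitochondrial folate enzyme, differed by 1.68, asparagine synthetase Asns by 1.18 and the aspartate aminotransferase Got1 by 1.17. With ANGPTL4, 9 of the 10 were lower than with intralipid alone (median -0.35), where 23% of all genes were. No synthetase reached the difference of these 3 genes, the nearest being Cars at 0.69.

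Among the listed partners of tRNA charging, lower values prevailed, as they did among all genes. The list also holds the tRNA modification genes Trmt5, Lage3 and Osgep, which differed between intralipid and PBS by -0.29, -0.46 and 0.00. Of 17 past the floor, 10 were lower with intralipid than with PBS (58.8%), 1 higher and 6 identical, with a median of -0.13, and 4 were at least 1.5-fold lower, beside 44.4% and 5.57% of all genes. Sephs1 and Sephs2, of the selenophosphate synthetase family, differed by -0.90 and -0.79, Mtfmt, which formylates the mitochondrial initiator methionyl-tRNA, by -0.90, and Gatc, a subunit of the enzyme that makes mitochondrial glutaminyl-tRNA, by -0.75. With ANGPTL4, 12 of 17 were higher than with intralipid alone (median 0.40), where 46.3% of all genes were, and Mtfmt was higher by 1.34. The scaffolds of the multi-synthetase complex differed among themselves. Aimp2 was at 6.80 in PBS, 6.24 in intralipid and 6.98 on the ANGPTL4 array (-0.56 between the first pair), Eef1e1 at 8.08, 7.95 and 8.35 (-0.13) and Aimp1 at 6.92, 7.14 and 7.09 (0.22). The tRNA export factor Xpot differed by -0.07.

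The mitochondrial translation factors differed little. Of 13 past the floor, 2 were higher and 5 lower with intralipid than with PBS, with a median of 0.00, and the widest difference was -0.31 (Mrpl44, a protein of the mitochondrial ribosome). The shares higher (15.4%) and lower (38.5%) lie near the 23.5% and 44.4% of all genes. Against intralipid alone, ANGPTL4 gave 7 higher (53.8%, near the 46.3% of all genes) and 1 lower. Each of these lists comes from the same 3 arrays, and what they share with the synthetases was not tested.

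**Figure D4:**
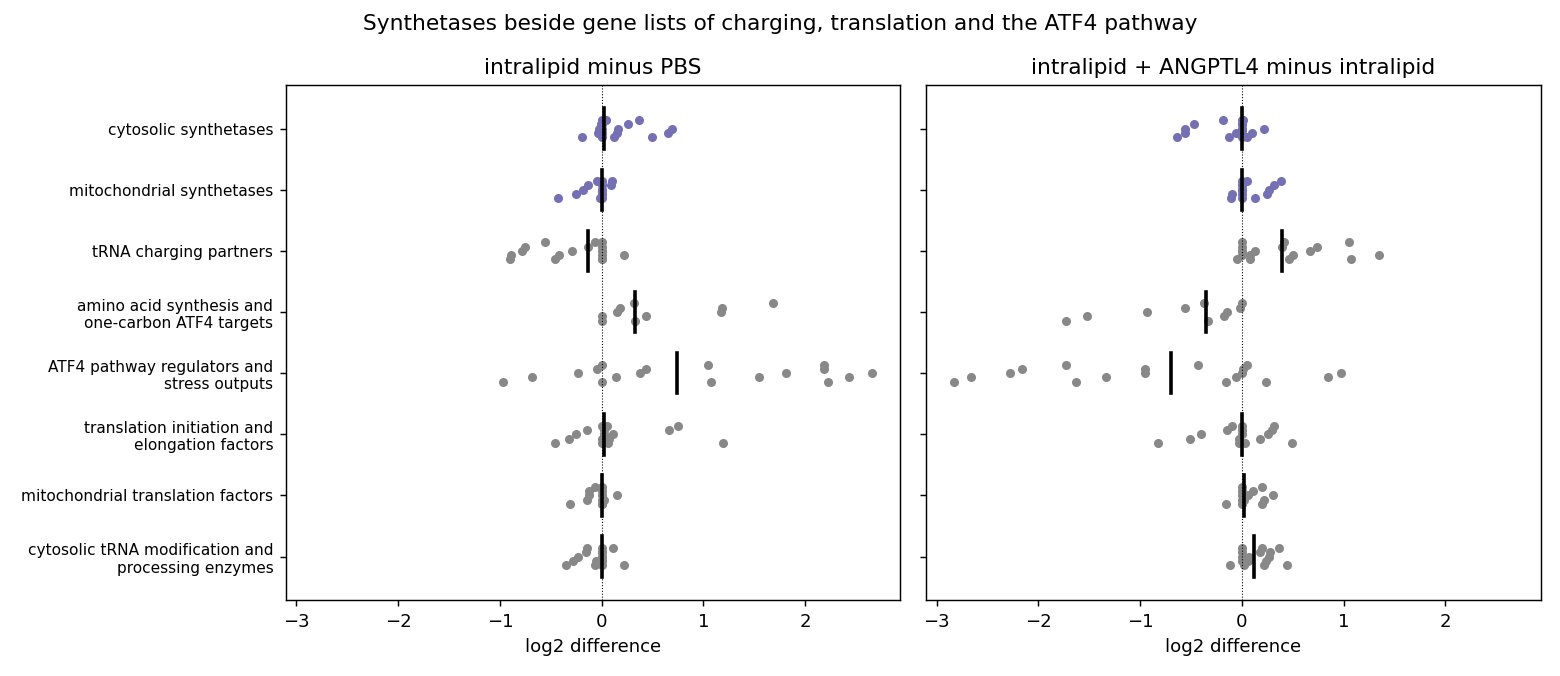
Log2 differences (horizontal axis) of single genes past the floor, 1 point per gene, for the cytosolic and mitochondrial synthetases (violet) and the 6 companion lists (grey), with a black bar at each median. Left is intralipid minus PBS and right intralipid plus ANGPTL4 minus intralipid. Medians of the synthetases stand at 0.02 and 0.00 on the left, that of the ATF4 pathway list at 0.74 and that of the charging partners at -0.13.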

How the data were processed

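The deposited table holds log2 values for 35556 probe sets, which the authors made with RMA per the submitters' processing notes. For the version of RMA and the chip definition, "not given in the sources used here" applies. Per the labels' protocols, RNA with an integrity number above 8 was pooled from 3 samples per array. GEO's platform annotation left 12146 probe sets without a symbol, gave several to 1621 and exactly 1 to 21789. The last kind named genes, and the one with the highest mean was kept per gene, which left 19938 genes. All 34 members had their gene identifier in the RefSeq table. Genes entered a comparison where 1 of its arrays reached the floor. Differences, counts and medians were computed with pandas 2.3.3. Only the 2-fold calls and the robust SD of intralipid against PBS were checked on simulated data, with changed genes well above the floor. Alternative normalizations used limma 3.58.1. The number of arrays limits the precision. Members and lists were chosen with earlier results of these data known. All members are named, those past 1.5-fold with the value on each array, and up to 4 genes per companion list by the rule; further companion genes, other per-array values, the robust SD and the Eprs, Sars, Gars, Tars, Yars and Iars stretches were chosen after the values were seen. Of 104 list symbols, 8 had no probe set of their own.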

Additional observations from a re-analysis of the deposited data

Results flagged for a closer look

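The probe set that the annotation assigns to both Aars, the cytosolic alanyl enzyme, and Exosc6, a subunit of the RNA exosome, stood outside the comparisons because it names 2 genes. Its log2 value was 8.09 in PBS, 8.53 in intralipid and 8.09 on the ANGPTL4 array, so it was 0.44 above the PBS control with intralipid. Which of the 2 genes it reports was not tested.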

How the results depend on the processing

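Leaving replicates out was not possible with 1 array per group, and no paired analysis was possible because each group has a single array. Of 114 summary values under alternatives, 101 stayed within 0.10 (the smallest robust SD) or, for counts, within 1.5 times, and 13 did not. That limit is wider than every main median, so a median could change sign and still count as staying. The cytosolic median did so with centring for intralipid against PBS (0.02 to -0.01). It also did with quantile normalization for ANGPTL4 against PBS (0.02 to -0.03). At a 1.5-fold threshold the called members were 2 for intralipid against PBS and 1 for ANGPTL4 against intralipid. With the mean in place of the median, the cytosolic value became 0.15 and -0.12 in these comparisons, and its gap to the mitochondrial value 0.21 and -0.20. Without identical members, the cytosolic value was 0.14 for intralipid against PBS, the mitochondrial value was 0.13 for ANGPTL4 against intralipid, and the gaps were 0.18 and -0.16. With the floor at the 75th percentile, which left 2 mitochondrial genes, the gaps were 0.17 and -0.13 and the mitochondrial value 0.13 for ANGPTL4 against intralipid. The many ties at 0 hold the medians near 0 in the main values. Single members moved by at most 0.07 under the 3 normalizations and the mean over probe sets, and of 102 differences 9 changed sign with quantile normalization, 6 with centring, 4 with cyclic loess and 0 with the mean over probe sets. Adding the probe set that Aars shares with Exosc6 or leaving out Gars and Kars, both chosen after seeing the data, gave cytosolic medians of 0.04 and 0.08 for intralipid against PBS.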

Other observations

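Eif4e and Eif2s2 differed more between intralipid and PBS than any synthetase did. Eif4e, which binds the mRNA cap, was at 9.32 in PBS, 10.52 in intralipid and 9.70 on the ANGPTL4 array, 2.29-fold higher with intralipid than with PBS. Eif2s2, the beta subunit of eIF2, differed by 0.75 and Eif5 by 0.66, while Eif2b1, a subunit of the exchange factor of eIF2, differed by -0.46. Over the 16 measured initiation and elongation factors the median was 0.03, with 9 higher (56.3%, beside 23.5% of all genes) and 4 lower.

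Among 16 tRNA modification and processing enzymes past the floor, 2 were higher with intralipid than with PBS and 7 lower (43.8%, near the 44.4% of all genes), with a median of 0.00. Alkbh8, a methyltransferase of the tRNA wobble position, differed by -0.35, Pus7, a pseudouridine synthase, by -0.28, Trmt6 by -0.23 and Trmt1, a guanosine methyltransferase, by 0.22. With ANGPTL4, 11 of the 16 were higher than with intralipid alone (68.8%, beside 46.3% of all genes) and 1 lower, with a median of 0.12.

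A second probe set of Iars, with a lower mean than the one used, was at 7.78 in PBS, 7.77 in intralipid and 7.84 on the ANGPTL4 array. Tarsl2, a threonyl enzyme whose symbol the member rule does not cover, was at 5.06, 4.96 and 4.96, close to the floor.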
